A study of Mus musculus with 12 samples.

Results

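The introns described here are the short introns, under 150 nt, that the splicing event table of murine G1E-ER4 erythroblasts lists as retained between annotated splice sites. They were taken by event type (intron retention), by the class that calls all splice sites of the event known, by length and by a single genomic position. This gave 1681 introns in 1002 gene names, out of 5945 retained introns and 19323 splicing events of all types. G1E-ER4 is a proerythroblastic line that has lost its own GATA1 and holds a GATA1-estrogen receptor fusion, through which β-estradiol starts erythroid differentiation. Poly(A) RNA was sequenced from 3 libraries of Sf3b1 K700E/+ cells (labelled SF3B1 MUT) and 3 libraries of Sf3b1 +/+ cells (labelled SF3B1 WT), both obtained by CRISPR editing in an isogenic background and harvested at 24 h of estradiol. The untreated time point was not analysed here. Each genotype is 1 clone, so that genotype and clone cannot be told apart. The labels do not say whether the libraries came from separate cultures, and p-values therefore cover only a spread between libraries that may be technical.

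SF3B1 is a subunit of the U2 snRNP and holds the spliceosome on the branch point, the adenosine upstream of the acceptor (3′ splice site) that attacks the donor (5′ splice site) in the first step of splicing. The K700E substitution is known for use of cryptic acceptors a short way upstream of the usual one. Very short mammalian introns are commonly GC-rich and recognised as a unit across the intron, and they are among those most often left in polyadenylated transcripts. A retained intron may add a stop codon to the reading frame, keep the transcript in the nucleus, or send it to nonsense-mediated decay.

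Gene counts summed to between 44045337 and 50077827 in the Sf3b1 K700E/+ libraries and to between 38785471 and 40702174 in the Sf3b1 +/+ libraries. The tested short introns took 306885 to 347432 and 266124 to 280406 reads. The targeted gene Sf3b1 was at 758 ± 11.6 CPM (counts divided by the normalised library size, SD over 3 libraries) in Sf3b1 K700E/+ cells, against 743 ± 14.0 CPM in Sf3b1 +/+ cells. All 11 measured erythroid markers had reads in these libraries, with summed levels of 8893 to 14748 CPM in Sf3b1 K700E/+ and 10767 to 15240 CPM in Sf3b1 +/+. Of 7 granulocyte and macrophage markers, Elane was at 0 throughout, and the list summed to 1.20 to 1.65 CPM against 6.42 to 14.0 CPM, a gap carried mainly by Lyz2. The 4 megakaryocyte markers summed to 8.75 to 18.4 CPM against 15.7 to 27.3 CPM, and 3 of 4 lymphoid markers were at 0. The part of these lineage genes in the results on introns was not tested.

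The sequences that carry the results are shown first. Introns of the table were matched by gene and exact genomic span to GENCODE M21 (GRCm38), which gave 1 intron for 1495 of them, several for 123 and none for 63. Where another transcript of the annotation keeps the intron, its sequence was read from that transcript (821 introns). The positions below are therefore those of GRCm38, whereas the event table is on GRCm39. Intron numbers count within the annotated transcript that splices the intron and has the most introns. For Brca1 that transcript has 1 intron, and the number is no rank within the whole gene. All lines run 5′ to 3′, and capitals mark the first 6 bases (donor), the last 3 bases (acceptor) and each match to CTNAC, a reduced form of the branch point consensus, in the last 50 bases. The first lines are introns with lower retention in Sf3b1 K700E/+ cells, called at the thresholds given further on in every alternative fit that held them, among them neighbouring introns of Dvl1.
Dvl1 intron 7 of 15, chr4:155854660-155854730, plus strand: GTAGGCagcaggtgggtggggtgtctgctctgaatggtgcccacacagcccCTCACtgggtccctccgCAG
Dvl1 intron 8 of 15, chr4:155854801-155854885, plus strand: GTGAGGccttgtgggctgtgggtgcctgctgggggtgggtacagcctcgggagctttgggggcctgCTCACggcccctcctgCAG
Ankle1 intron 3 of 8, chr8:71406785-71406861, plus strand: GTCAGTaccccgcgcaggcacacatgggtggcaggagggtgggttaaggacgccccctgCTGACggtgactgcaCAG
Tmem191c intron 3 of 9, chr16:17276888-17276961, plus strand: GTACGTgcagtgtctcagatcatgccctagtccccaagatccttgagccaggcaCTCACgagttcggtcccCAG
Trmu intron 6 of 10, chr15:85893880-85893953, plus strand: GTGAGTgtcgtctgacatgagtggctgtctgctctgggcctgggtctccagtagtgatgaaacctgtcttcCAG
Fuz intron 8 of 11, chr7:44899092-44899173, plus strand: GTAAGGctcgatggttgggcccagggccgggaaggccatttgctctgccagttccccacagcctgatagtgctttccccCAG
Helz2 intron 10 of 19, chr2:181231140-181231230, minus strand: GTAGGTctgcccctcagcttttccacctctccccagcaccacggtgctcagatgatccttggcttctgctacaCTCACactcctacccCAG
Zfp653 intron 4 of 8, chr9:22057703-22057803, minus strand: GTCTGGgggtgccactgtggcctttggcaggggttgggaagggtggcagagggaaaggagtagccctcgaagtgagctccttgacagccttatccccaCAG
Rps6kb2 intron 9 of 14, chr19:4158718-4158828, minus strand: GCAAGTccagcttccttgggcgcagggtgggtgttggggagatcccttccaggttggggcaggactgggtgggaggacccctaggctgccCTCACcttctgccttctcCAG
Brca1 intron 1 of 1, chr11:101524411-101524545, minus strand: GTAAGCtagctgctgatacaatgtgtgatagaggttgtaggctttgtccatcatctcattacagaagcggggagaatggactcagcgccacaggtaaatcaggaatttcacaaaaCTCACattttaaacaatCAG
Commd4 intron 4 of 5, chr9:57156034-57156171, minus strand: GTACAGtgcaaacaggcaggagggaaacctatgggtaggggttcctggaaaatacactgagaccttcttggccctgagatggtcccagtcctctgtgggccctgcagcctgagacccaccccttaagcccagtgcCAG

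The next lines are introns whose retention was higher in Sf3b1 K700E/+ cells, among them the intron of Tmem191c just upstream of the one printed above. The short exon between these introns of Tmem191c separates sequences that moved in opposite directions.
Tmem191c intron 2 of 9, chr16:17276758-17276836, plus strand: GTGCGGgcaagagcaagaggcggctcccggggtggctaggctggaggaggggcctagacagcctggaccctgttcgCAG
Get4 intron 6 of 8, chr5:139267145-139267226, plus strand: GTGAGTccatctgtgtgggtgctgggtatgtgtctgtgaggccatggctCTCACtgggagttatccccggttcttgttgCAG
Fxr1 intron 12 of 16, chr3:34058082-34058168, plus strand: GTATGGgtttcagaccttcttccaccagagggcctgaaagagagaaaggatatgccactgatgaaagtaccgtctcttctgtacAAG
Lrrc29 intron 4 of 6, chr8:105313565-105313680, minus strand: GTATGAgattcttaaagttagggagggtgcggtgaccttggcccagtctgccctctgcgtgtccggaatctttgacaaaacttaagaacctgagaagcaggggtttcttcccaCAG

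Most of these introns lay in coding sequence and most would break the reading frame. Lengths ran from 56 nt up to the limit, with a median of 91 nt (quartiles 80 and 113 nt), and 1145 of 1681 were not a multiple of 3. All lengths given are those of the assembled retained stretch, which differed from the genomic span for 39 introns. Of the 1495 with 1 annotated match, 1278 (85.5%) lay between coding parts, 141 (9.43%) touched a UTR, and 502 (33.6%) were the last intron of at least 1 annotated transcript, which may be a shortened one. The table gave GT/AG ends on the strand of the named gene for 1539 introns and GC/AG ends for 21. For 47 it gave CT/AC ends, which read as GT/AG on the opposite strand. Among the 821 sequences read, median GC content was 56.5% (quartiles 51.2% and 62.1%), C or T made up a median of 70% of the 20 bases before the last 3, and CTNAC occurred in the last 50 bases of 259 (31.5%). The reverse complement GTNAG occurred in the same window of 90 (11.0%). Of 665 introns whose frame could be read from the annotation, 463 (69.6%) held a stop codon in frame, 73 had none and a length that keeps the frame, and 129 had none and a length that shifts it.

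Retention was expressed as percent spliced in (PSI), the share of the retained path after the reads of each path are divided by its length, here as a fraction from 0 to 1. Introns were tested where the paths together had 10 or more reads in each of the 6 libraries, which 1593 introns in 946 gene names met and 88 did not. Depth per tested intron ran from 79 to 54380 reads over the 6 libraries (median 647). Most were spliced out of most transcripts. Median PSI was 0.149, 0.135 and 0.122 in Sf3b1 K700E/+ replicates 1 to 3 and 0.165, 0.137 and 0.146 in Sf3b1 +/+ replicates 1 to 3, and between 198 and 251 introns (12.4% to 15.8%) had PSI over 0.5. The medians of the genotypes overlapped. The mean difference, Sf3b1 K700E/+ minus Sf3b1 +/+, was -0.0139 ± 0.0114 (SE), with an exact two-sided permutation p of 0.4, where 0.1 is the smallest p that 3 against 3 libraries allow. Same-numbered libraries differed by -0.0158, -0.00189 and -0.0239.

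Annotated introns of 150 nt or more had a higher median retention than short ones in each of the 6 libraries. Their median PSI over 2883 tested introns was 0.213, 0.203 and 0.188 in Sf3b1 K700E/+ and 0.242, 0.210 and 0.235 in Sf3b1 +/+ libraries (difference -0.0278 ± 0.0124, exact permutation p = 0.2). The gap between short and longer introns, as median PSI of short minus longer, was -0.0642, -0.0672 and -0.0657 in Sf3b1 K700E/+ and -0.0774, -0.0723 and -0.0890 in Sf3b1 +/+ libraries. The gap was smaller in all Sf3b1 K700E/+ libraries, by 0.0139 ± 0.00501 (SE), and the exact permutation p was 0.1, the smallest possible.

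A minority of short introns changed, mostly toward less retention. A differential splicing event (DSE) had an absolute PSI difference over 0.10 and a Benjamini-Hochberg adjusted p under 0.05 for the path by genotype term of edgeR's quasi-likelihood test, adjusted over all 17656 tested events. Intron retention reduction (IRR, lower PSI in Sf3b1 K700E/+) was found for 48 short introns in 43 genes, 3.01% of those tested, against 4.14% of all events called lower in their longer path. Retention rose for 9 short introns in 9 genes (0.565%, against 2.17% of all events called higher). Longer annotated introns had IRR in 160 of 2883 (5.55%) and a rise in 31 (1.08%). Retained introns with an unannotated site had IRR in 105 of 1230 (8.54%) and a rise in 9 (0.732%). These shares were not tested against each other. The count of 48 rests in part on single libraries, with 28 without Sf3b1 K700E/+ replicate 3, 31 without Sf3b1 +/+ replicate 1 and 30 without Sf3b1 +/+ replicate 3. The count of 9 became 4 when Sf3b1 K700E/+ replicate 1 was left out, 2 when its replicate 2 was and 16 when Sf3b1 +/+ replicate 1 was.

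**Figure D1:**
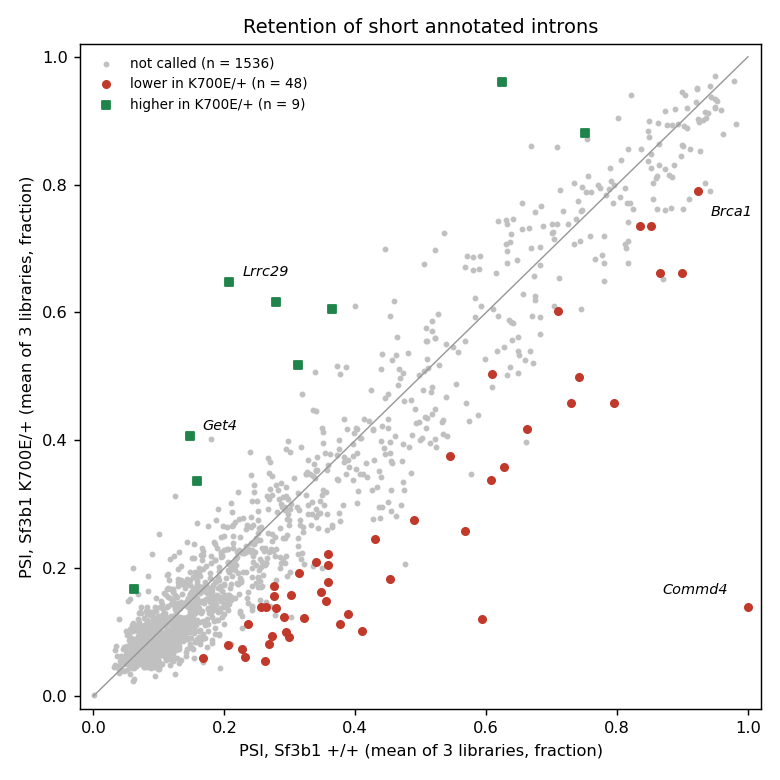
Mean PSI (fraction, n = 3 libraries) of each of the 1593 tested short introns in Sf3b1 +/+ (x axis) and Sf3b1 K700E/+ cells (y axis), with the line of equal values. Most points lie below 0.5 near the line, and 48 red circles mark lower and 9 green squares higher retention in Sf3b1 K700E/+. Commd4 alone goes from 1.00 to 0.139, by a PSI that does not count splicing to a second acceptor.

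Differences were small for the bulk of short introns. The mean PSI was lower in Sf3b1 K700E/+ for 993 of 1593 (62.3%), with a median difference of -0.0126, against -0.0110 over all events and -0.0210 over longer introns, and 1132 (71.1%) stayed within 0.05 of no difference. PSI values of the genotypes did not overlap for 260 introns in the lower direction (16.3%, against 17.0% of all events) and for 89 in the higher direction (5.59%, against 8.94%). Same-numbered libraries all gave a lower value for 450 of the 1593 introns, against 4882 of all 17656 tested events. They all gave a higher value for 205 introns, against 2791 of all events. Just inside the threshold of 0.10 lay Slc35a4 (108 nt, difference -0.101), Abca7 (72 nt, -0.104) and the intron of Ampd2 and Gm12500 (86 nt, -0.106), and just outside it Hras (147 nt, 0.0990), Gmppb (82 nt, -0.0983) and Mrps10 (84 nt, -0.0975).

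Commd4, a COMM domain gene, had the largest fall in PSI. PSI of its 138-nt intron was 0.142, 0.124 and 0.151 in Sf3b1 K700E/+ libraries and 1 in each Sf3b1 +/+ library. Reads that this event counts as joining the splice sites of the intron numbered 113, 109 and 89 against none. For the reads of this event alone that is at least 92.3-fold higher, with a floor of 3 counts over the genotype. It is no bound for the junction itself, which the acceptor event below counts in both genotypes. The retained path had 51, 42 and 43 reads against 64, 72 and 55. The event shares its donor with another intron whose acceptor lies 22 nt downstream. For that pair of acceptors, the share of the upstream one was 0.909, 0.975 and 0.925 in Sf3b1 K700E/+ and 0.282, 0.411 and 0.395 in Sf3b1 +/+ libraries (difference 0.574 ± 0.0454, SE; edgeR adjusted p = 1.72e-07). In that acceptor event 429 reads supported the upstream acceptor over the Sf3b1 K700E/+ libraries and 23 over the Sf3b1 +/+ libraries, so the absence of spliced reads in Sf3b1 +/+ cells holds for the retention event and not for the acceptor. Splicing to the downstream acceptor does not enter this PSI. A PSI of 1 therefore does not mean that Sf3b1 +/+ transcripts were left unspliced here. The event table marks a SNP in the retention event.

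In the netrin gene Ntn3, 2 short introns had IRR, and its 83-nt intron had the next largest fall. The 83-nt intron had PSI 0.0477, 0.141 and 0.172 in Sf3b1 K700E/+ against 0.663, 0.567 and 0.551 in Sf3b1 +/+ libraries, which do not overlap (difference -0.473 ± 0.0510, SE; edgeR adjusted p = 0.000139). The 110-nt intron had 0.0420, 0.153 and 0.111 against 0.241, 0.341 and 0.648, also without overlap (difference -0.308, adjusted p = 0.00710), and this call was lost without Sf3b1 K700E/+ replicate 1 (adjusted p = 0.0604) or Sf3b1 +/+ replicate 3 (0.0699). Spliced reads of the 83-nt intron rose from 4, 3 and 6 to 49, 21 and 26, and retained reads were 5, 7 and 11 in Sf3b1 K700E/+ against 16, 8 and 15 in Sf3b1 +/+ libraries. The gene itself was higher in Sf3b1 K700E/+ cells, at 15.4 against 3.21 CPM (log2 fold change 2.25 ± 0.14, SE).

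**Figure D2:**
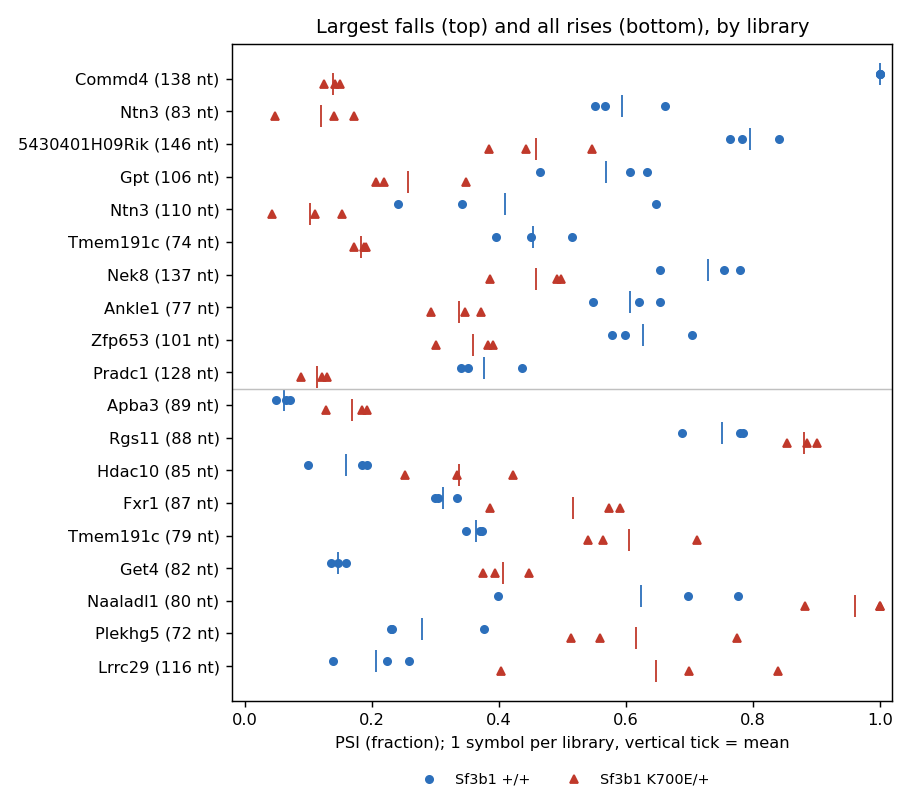
PSI (fraction) per library of the 10 short introns with the largest falls (above the line) and of the 9 with a rise (below it), with Sf3b1 +/+ libraries as blue circles, Sf3b1 K700E/+ libraries as red triangles and means as vertical ticks. The libraries of the genotypes do not overlap for any intron shown. Commd4 stands at 1 in all Sf3b1 +/+ libraries, by a PSI that does not count splicing to a second acceptor.

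The falls of Dvl1, of Fuz and of the shorter Pdia2 intron were called in every alternative fit at the PSI threshold of 0.10. Dvl1, a dishevelled transducer of Wnt signals, had PSI 0.253, 0.250 and 0.233 against 0.458, 0.395 and 0.436 for its 71-nt intron. Its 85-nt intron, the next in the gene, had 0.177, 0.135 and 0.0726 against 0.430, 0.319 and 0.419. Neither pair of sets overlaps, and the differences were -0.184 ± 0.0193 (SE; edgeR adjusted p = 0.00339) and -0.261 ± 0.0467 (adjusted p = 2.82e-05). Retained reads of both Dvl1 introns were lower (log2 fold change -1.03 and -1.70) while spliced reads did not pass the test (0.18 and 0.36).

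Fuz, a planar cell polarity effector needed for cilia, also had adjoining introns with IRR. The 130-nt intron went from 0.343, 0.272 and 0.205 in Sf3b1 +/+ to 0.0692, 0.134 and 0.0785 in Sf3b1 K700E/+ libraries, and the 82-nt intron from 0.359, 0.310 and 0.298 to 0.106, 0.148 and 0.113. The genomic span of the first is shorter than the assembled 130 nt. All Sf3b1 K700E/+ values lay under all Sf3b1 +/+ values. The differences were -0.180 ± 0.0448 (SE; edgeR adjusted p = 0.00178) and -0.200 ± 0.0228 (adjusted p = 0.000372). Pdia2, a protein disulfide isomerase whose gene rose from 27.1 to 92.5 CPM (log2 fold change 1.75 ± 0.08), had PSI 0.0742, 0.0818 and 0.0629 against 0.245, 0.210 and 0.228 for its 67-nt intron (difference -0.155, adjusted p = 1.94e-05). Its 145-nt intron had 0.188, 0.126 and 0.156 against 0.317, 0.250 and 0.262 (difference -0.120, adjusted p = 0.00320), and without Sf3b1 +/+ replicate 1 the difference fell under the threshold.

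The 91-nt intron of Helz2, a helicase of the nucleus, had the largest fall in retained reads by log2 fold change among those with IRR, on few reads. These were 3, 6 and 6 in Sf3b1 K700E/+ and 15, 28 and 20 in Sf3b1 +/+ libraries, with 37, 48 and 28 spliced reads against 24, 39 and 34. The retained path was lower (log2 fold change -2.20 ± 0.44, SE; edgeR adjusted p = 0.00117), and the spliced path was at 0.05 ± 0.26. Trmu, the thiouridylase of mitochondrial tRNA, moved in both paths, with 8, 11 and 4 against 19, 23 and 18 retained reads and 80, 65 and 55 against 20, 30 and 44 spliced reads in its 74-nt intron. Its PSI was 0.0491, 0.0804 and 0.0362 against 0.329, 0.284 and 0.174 (difference -0.207 ± 0.0477, adjusted p = 0.000280). Stk16, a serine/threonine kinase, had one of the deeper changes, with 316, 319 and 319 spliced reads against 173, 237 and 230 and 153, 159 and 156 retained reads against 227, 251 and 239. The PSI of this 126-nt intron was 0.156, 0.160 and 0.158 against 0.334, 0.288 and 0.284 (difference -0.144 ± 0.0160, adjusted p = 2.94e-05), and within each genotype the libraries lay close together.

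Introns with a GC donor were among those that fell. Of the 20 tested introns with GC/AG ends, 4 had IRR, in Nek8, Rps6kb2, Pdia2 (145 nt) and Mrm1, against 48 of 1593 in all. Rps6kb2, a kinase of ribosomal protein S6, had PSI 0.0811, 0.105 and 0.0906 against 0.336, 0.252 and 0.308 in its 111-nt intron (difference -0.207 ± 0.0255, SE; edgeR adjusted p = 4.09e-05). Nek8, a kinase of the primary cilium, had 0.492, 0.499 and 0.386 against 0.754, 0.654 and 0.780 in its 137-nt intron (difference -0.270 ± 0.0529, adjusted p = 0.0299). Both sets are without overlap. The Nek8 call was lost when Sf3b1 K700E/+ replicate 2 or 3 or Sf3b1 +/+ replicate 1 or 3 was left out (adjusted p 0.0511 to 0.119), and with DESeq2. That of Mrm1 was lost without Sf3b1 K700E/+ replicate 3 or Sf3b1 +/+ replicate 1 or 2, and with the deposited PSI (difference -0.0667). That of Pdia2 (145 nt) was lost without Sf3b1 +/+ replicate 1 and with DESeq2, limma and the deposited PSI. Of the 4, only the Rps6kb2 call was kept in every alternative fit that held it, at the PSI threshold of 0.10. The share of GC donors was seen after the values were known and was not tested.

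In the DNA repair list of the study, 4 of 129 tested short introns (74 genes) had IRR, against 48 of 1593 short introns in all, a share near that of short introns as a whole. Ankle1, an ankyrin repeat endonuclease, had PSI 0.371, 0.347 and 0.293 in Sf3b1 K700E/+ against 0.654, 0.621 and 0.548 in Sf3b1 +/+ libraries for its 77-nt intron (difference -0.270 ± 0.0389, SE; edgeR adjusted p = 0.00146). The 135-nt intron of Brca1, the homologous recombination gene, lies within a large coding exon. It had a high PSI in both genotypes, of 0.812, 0.743 and 0.817 against 0.931, 0.920 and 0.920 (difference -0.133 ± 0.0243, adjusted p = 0.000368). Its spliced reads were 42, 52 and 29 against 10, 12 and 8, and the event table marks a SNP in this event. A 94-nt intron shared by Eme2, a partner of the Mus81 nuclease, and Mapk8ip3 had 0.0977, 0.105 and 0.0970 against 0.342, 0.325 and 0.215 (difference -0.194, adjusted p = 0.00355), and the reads cannot be assigned to either gene. Recql4, a RecQ helicase, had 0.161, 0.0625 and 0.115 against 0.310, 0.229 and 0.171 in a 78-nt intron (difference -0.124, adjusted p = 0.0400), a call lost without any of Sf3b1 K700E/+ replicate 2 or 3 or Sf3b1 +/+ replicate 1 or 2. One intron of the list, in Hdac10, rose. The median difference of the list was -0.0102, against -0.0126 over all short introns.

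The other gene lists were described in the same way, and no difference between lists was tested. Splicing factors and spliceosome genes had 38 tested short introns with a median difference of -0.0133, of which 1 had IRR, in the last intron of Celf1, an RNA-binding splicing regulator. PSI there was 0.202, 0.168 and 0.165 against 0.397, 0.293 and 0.386 (difference -0.180 ± 0.0349, SE; edgeR adjusted p = 0.00915), a call lost without Sf3b1 +/+ replicate 1 (adjusted p = 0.0632). Solute carriers and transporters had 50 tested introns with 4 IRR, in the lipid transporter Abca7 (72 and 95 nt), the anion exchanger Slc4a2 and the nucleotide sugar transporter family member Slc35a4. These 4 calls were each lost without any of several single libraries (4 and 5 of the 6 libraries for the Abca7 introns, 5 for Slc4a2 and 3 for Slc35a4) and with DESeq2. Ubiquitin and proteasome genes had 50 with 1 IRR (Uba7, which activates ISG15), zinc finger genes 37 with 2 (Zfp653, and Zfp276, which was lost without any of 4 libraries), vesicle traffic genes 43 with 1 (Stx5a, lost without any of 5 libraries), and mitochondrial ribosome and respiratory chain genes 15 with 1 (Mrpl24, lost without any of 3). The Zfp276 intron has CT/AC ends on the strand of that gene, and the strand of its transcript was not tested. Its PSI overlapped between genotypes, with 0.297 in Sf3b1 K700E/+ replicate 2 and 0.291 in Sf3b1 +/+ replicate 2. The 7 introns matched as ribosomal protein genes had 1, in Rps6kb2, which is a kinase and no ribosomal protein. Chromatin regulators had 35 tested introns with no IRR and 1 rise (Hdac10).

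No short intron of RNA helicases (8 tested), translation factors and aminoacyl-tRNA synthetases (11), transcription machinery (30), cytoskeleton genes (7), heme, iron and globin genes (4, all in 1 gene), nonsense-mediated decay (5), or the cell cycle (11) and DNA replication lists of the study (7) passed both thresholds in edgeR. Of the 81 introns in these lists, 16 had an unadjusted p under 0.05 and 3 an adjusted p under 0.05 with a smaller PSI difference, and DESeq2 and limma called none. In the lists with 4 or more tested introns, group medians of the difference lay between -0.0225 in vesicle traffic genes and 0.0259 in heme, iron and globin genes.

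Retention rose most clearly in Get4, which helps insert tail-anchored proteins into membranes. Its 82-nt intron had PSI 0.394, 0.448 and 0.376 in Sf3b1 K700E/+ against 0.160, 0.135 and 0.146 in Sf3b1 +/+ libraries (difference 0.259 ± 0.0227, SE; edgeR adjusted p = 9.54e-09), and among the 9 rises only this one was called in every alternative fit. Spliced reads were 103, 84 and 104 against 463, 477 and 465, and retained reads 135, 137 and 126 against 177, 150 and 160, so that both paths were lower (log2 fold change -2.44 and -0.46). The gene was lower as a whole, at 35.6 against 136 CPM (log2 fold change -1.95 ± 0.08). In Fxr1, an RNA-binding relative of the fragile X protein, both paths were also lower, with PSI 0.591, 0.574 and 0.387 against 0.300, 0.304 and 0.333 in an 87-nt intron (difference 0.205 ± 0.0664, adjusted p = 0.00422) and a gene level of 24.8 against 85.9 CPM (log2 fold change -1.81 ± 0.06). The Fxr1 call was lost without Sf3b1 K700E/+ replicate 1 (adjusted p = 0.0602) or 2 (0.0548).

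Tmem191c had short introns that moved in opposite directions. The 79-nt intron had PSI 0.564, 0.712 and 0.540 in Sf3b1 K700E/+ against 0.370, 0.348 and 0.374 in Sf3b1 +/+ libraries, and the 74-nt intron after it had 0.190, 0.188 and 0.171 against 0.451, 0.395 and 0.515. In Sf3b1 +/+ cells the downstream intron was retained a little more than the upstream one, and in Sf3b1 K700E/+ cells less. The differences were 0.242 ± 0.0545 (SE; edgeR adjusted p = 0.0166) and -0.270 ± 0.0350 (adjusted p = 0.00148), and the rise was lost without Sf3b1 K700E/+ replicate 2 (adjusted p = 0.139) or Sf3b1 +/+ replicate 2 (0.0604). The gene level did not pass the test (8.43 against 8.10 CPM, log2 fold change 0.04 ± 0.12).

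The other rises rested on few reads or on single libraries. Lrrc29 had the largest, with PSI 0.840, 0.700 and 0.403 against 0.258, 0.224 and 0.139 in a 116-nt intron (difference 0.441 ± 0.134, SE; edgeR adjusted p = 0.00551), on 2, 4 and 6 spliced reads against 7, 14 and 10. Naaladl1 (80 nt, difference 0.336) had 1 spliced read in the Sf3b1 K700E/+ libraries together and 21 in the Sf3b1 +/+ libraries, and Plekhg5 (72 nt, 0.337), an exchange factor of small GTPases, had 14 and 37. Hdac10, a histone deacetylase family member that acts on polyamines, differed by 0.178 in its last intron, Rgs11, a regulator of G protein signalling, by 0.129, and the adaptor Apba3 by 0.107 in its last intron. Each of these 6 calls was lost when 1 or more single libraries were left out, among them Sf3b1 K700E/+ replicate 1 for all 6.

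The paths behind the PSI were then tested one by one, with library sizes from the gene counts. Over all tested short introns the retained path was lower in 189 (11.9%, against 14.1% of all events in their longer path) and higher in 107 (6.72%, against 13.3%), and the count of 107 became 71 when either Sf3b1 K700E/+ replicate 2 or Sf3b1 +/+ replicate 3 was left out. The spliced path was lower in 183 (11.5%, against 6.80% of all events in their shorter path) and higher in 246 (15.4%, against 11.8%). Median log2 fold changes were -0.12 for the retained path and 0.02 for the spliced path, where all events had -0.01 and 0.11. Among the 48 introns with IRR, 22 had only more spliced reads, 15 only fewer retained reads, 8 both, 2 more reads on both paths and 1 no path past the test. Their median log2 fold changes were -0.71 (retained) and 0.84 (spliced). Among the 9 rises, 4 had only fewer spliced reads, 2 had more retained and fewer spliced reads, 2 had fewer reads on both paths and 1 only more retained reads, with medians of 0.47 and -1.50. Each path level also moves with the level of its gene.

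**Figure D3:**
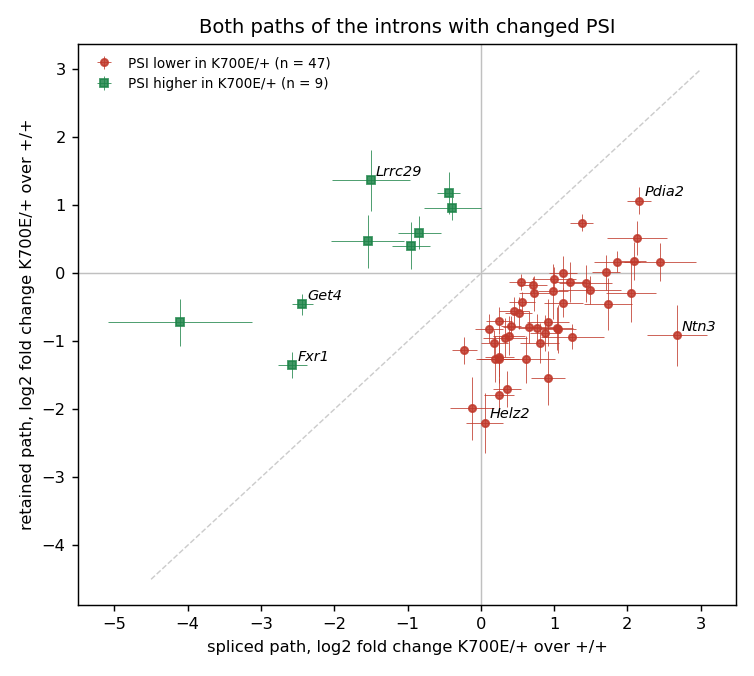
Log2 fold change (Sf3b1 K700E/+ over Sf3b1 +/+) of the spliced path (x axis) and the retained path (y axis) of 47 short introns with lower (red circles) and 9 with higher PSI (green squares), with bars of ± 1 SE and a dashed line of equal change. Commd4, whose retention event had no spliced reads in Sf3b1 +/+, is left out. Red points lie below the dashed line and green points above it, and Get4 and Fxr1 are lower on both paths.

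The genes that hold short introns were tested on their total counts. Of those kept by the filter on low counts, 22 (2.24%) were differentially expressed genes (DEGs, adjusted p under 0.05 and an absolute log2 fold change over 1) with higher and 40 (4.07%) with lower level in Sf3b1 K700E/+ cells, against 4.07% and 6.24% of all 12547 tested genes, and the difference of these shares was not tested. Their median log2 fold change was -0.01. Of the 48 introns with IRR, 4 lay in DEGs, all higher (Ntn3 and Pdia2, with 2 introns each), and of the 9 rises 2 lay in DEGs, both lower (Get4 and Fxr1). The other 51 changed introns lay in genes that were not DEGs.

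**Figure D4:**
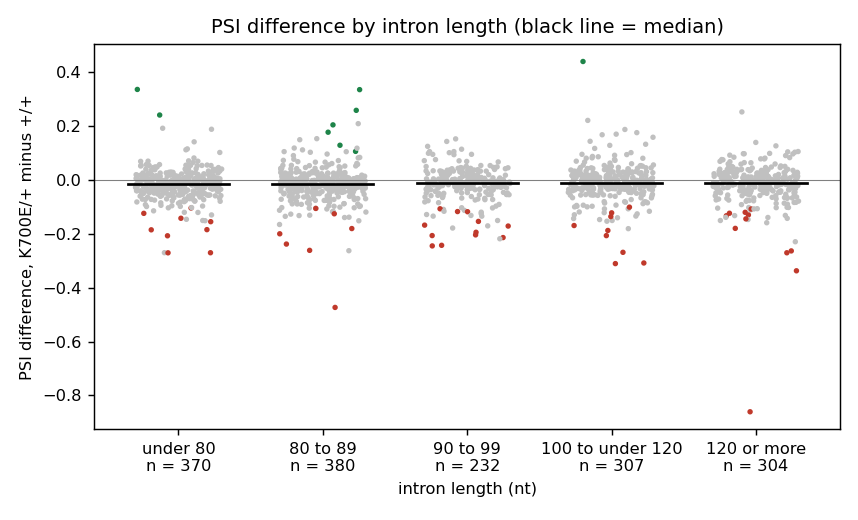
PSI difference (Sf3b1 K700E/+ minus Sf3b1 +/+, fraction) of each tested short intron in 5 length classes, with lower calls in red, higher calls in green and the class median as a black line. Medians lie between -0.0156 in introns under 80 nt and -0.00924 in introns of 120 nt or more, and 8 of the 9 rises fall below 90 nt.

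Calls were counted by length and by mean PSI over both genotypes. Introns under 80 nt (n = 370) had a median PSI of 0.139 in Sf3b1 +/+ cells and those of 120 nt or more (n = 304) of 0.187. IRR was called for 9 of 370 introns under 80 nt, 7 of 380 of 80 to 89 nt, 12 of 232 of 90 to 99 nt, 9 of 307 from 100 to under 120 nt and 11 of 304 of 120 nt or more, and rises numbered 2, 6, 0, 1 and 0. Both PSI classes and calls use the same values, and a PSI difference over 0.10 is hardly possible at the lowest levels. None of 488 introns with a mean PSI up to 0.10 was called in edgeR, DESeq2 or limma, and 68 had an unadjusted and 19 an adjusted edgeR p under 0.05. Between 0.10 and 0.25 there were 19 IRR and 2 rises of 638 introns, between 0.25 and 0.50 there were 17 and 5 of 251, between 0.50 and 0.75 there were 7 and 0 of 114, and above 0.75 there were 5 and 2 of 102.

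Introns with IRR were set beside the 1536 introns that were not called. Median PSI in Sf3b1 +/+ cells, which enters the call, was 0.359 against 0.145. Of the features that follow, intron length enters the PSI through the division by path length. Base content, stop codons, place in the gene and annotation do not enter the call. How branching of an event bears on its reads was not tested. Median length was 96 nt against 91 nt. Median GC content was 56.9% in 30 sequences against 56.8% in 755. CTNAC lay in the last 50 bases of 12 of 30 (40%) against 238 of 755 (31.5%), a stop in frame in 14 of 21 (66.7%) against 429 of 621 (69.1%), and 12 of 44 (27.3%) were the last intron against 459 of 1365 (33.6%). GENCODE lists a transcript that keeps the intron for 30 of 44 (68.2%) against 755 of 1365 (55.3%). Events without a further branch in the assembled graph made up 24 of 48 (50%) against 69.1% of introns not called, and all 9 rises were of this simple kind. These shares are descriptions of called introns and carry no test.

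Since K700E is known for upstream acceptors, events that choose between acceptors next to a short intron were examined. Of the 1593 tested short introns, 317 shared a splice site with a tested alternative donor or acceptor event, among them 20 with IRR and none with a rise. In 24 pairs the short intron ended at the upstream of 2 acceptors 10 to 30 nt apart, and the share of the upstream acceptor was higher in Sf3b1 K700E/+ cells in 13 (median difference 0.0104), while the median PSI difference of these introns was -0.0678. In 106 pairs at other distances it was higher in 31 (median difference -0.0239), with a median intron difference of -0.0156. Of the 24 introns, 6 had IRR, in Commd4, Ccdc84, Braf, Zfp653, Flt3l and Uba7, and in all 6 the upstream acceptor had the higher mean share in Sf3b1 K700E/+ cells. The same held for all 6 introns with IRR among the 106 pairs at other distances. Of the first 6 pairs, the change in acceptor share was called only in Commd4. Over all 24 pairs the share of the upstream acceptor was called higher in 1 and lower in 2. Over the 106 pairs at other distances it was called higher in 1 and lower in 5. The Flt3l intron call was lost without any single library of the 6, with DESeq2, with limma and with the deposited PSI (difference -0.0333), that of Ccdc84 without Sf3b1 K700E/+ replicate 3 or Sf3b1 +/+ replicate 3 and with DESeq2, and that of Uba7 without Sf3b1 +/+ replicate 1. In Zfp653, a zinc finger repressor, that share was 0.738, 0.612 and 0.598 against 0.349, 0.413 and 0.615 (difference 0.190 ± 0.0916, SE; edgeR adjusted p = 0.0683), with one Sf3b1 +/+ library inside the Sf3b1 K700E/+ range. Its 101-nt intron had PSI 0.391, 0.383 and 0.302 against 0.704, 0.579 and 0.599 (difference -0.269 ± 0.0482, adjusted p = 0.00233). Braf, the MAP kinase pathway kinase, had a share of 0.902, 0.884 and 0.897 against 0.780, 0.786 and 0.851 at acceptors 18 nt apart (adjusted p = 0.452), and PSI of 0.289, 0.460 and 0.503 against 0.628, 0.722 and 0.636 in its 99-nt intron (adjusted p = 0.0267). The Braf intron call was lost without Sf3b1 K700E/+ replicate 1 (adjusted p = 0.219) or Sf3b1 +/+ replicate 2 or 3 (0.145 and 0.0544). An intron and the acceptor event beside it share reads of the spliced path, so the 2 measures are not independent. Picking introns with IRR favours more of these reads and with them a higher share of the upstream acceptor. The 6 of 6 in either set of pairs is therefore no separate result.

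Genes with several short introns were described by the direction of each intron. Of 1002 gene names, 661 held 1 short intron, 179 held 2 and 162 held 3 or more, and 151 had at least 3 tested (617 introns). Within these, PSI in Sf3b1 +/+ cells spread over a median of 0.236 between the least and the most retained short intron. All introns moved down in 39 of the 151 genes and all moved up in 9, whatever the size of the move, and 21 genes held a call, 5 of them with 2. Of all 1593 tested short introns 993 had a lower mean, and whether neighbours went together beyond that share was not tested. Introns of 1 transcript share its level and are not replicates.

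Uba7 had the most, with 10 tested introns, of which 9 had a lower mean PSI in Sf3b1 K700E/+ cells and 1, of 89 nt, had IRR (0.0792, 0.0926 and 0.0676 against 0.266, 0.145 and 0.204; edgeR adjusted p = 0.00425, under the PSI threshold without Sf3b1 +/+ replicate 1). Abca7 had 8 of 9 lower with 2 IRR. All 8 introns of Lama5, a laminin chain, were lower by mean, between -0.0797 and -0.00160, as were all 8 of Pidd1, a p53-induced death domain protein, between -0.0783 and -0.00574, and all 7 of the centromere protein gene Cenpt, between -0.113 and -0.0285, without a call. All 7 introns of Pdia2 and of Adck5 were lower, with 2 IRR and 1. In Pcif1, the cap adenosine methyltransferase, 6 of 7 were higher, between 0.0556 and 0.0966, without a call, and in Rgs11 4 of 7 were higher with 1 rise.

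**Figure D5:**
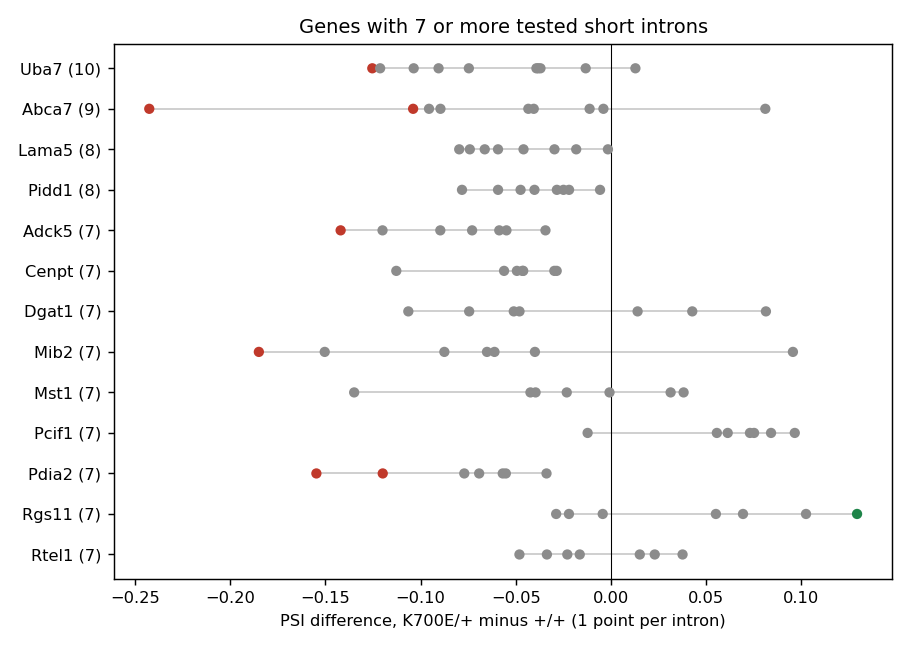
PSI difference (Sf3b1 K700E/+ minus Sf3b1 +/+, fraction) of each short intron in the 13 genes with 7 or more tested ones, 1 point per intron, red for lower and green for higher calls, with the number tested beside the gene name. All points of Lama5, Pidd1, Adck5, Cenpt and Pdia2 lie below 0, and 6 of 7 of Pcif1 lie above it.

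The 5 short introns with the most reads were not called. Rpl3, a ribosomal protein gene, had 38, 19 and 19 against 36, 18 and 23 retained reads in its 94-nt intron, with a PSI of 0.00118 against 0.00151. PSI was 0.895 against 0.893 in the 85-nt intron of Uqcrq (a respiratory chain subunit) and 0.914 against 0.935 in the 110-nt intron of Vamp5 (a vesicle fusion protein), where all Sf3b1 K700E/+ values lay under all Sf3b1 +/+ values. In Gas5, a noncoding host gene of small nucleolar RNAs, the 123-nt intron had 0.145, 0.112 and 0.115 against 0.187, 0.113 and 0.132. In Hnrnpm, a splicing regulator, the 117-nt intron had 0.324, 0.302 and 0.319 against 0.348, 0.290 and 0.334, and in both genes the libraries of the genotypes overlapped.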

How the data were processed

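Raw gene counts and an event table were used as the authors deposited them, for the 6 libraries taken at 24 h of estradiol. According to the labels the authors aligned reads with STAR 2.7.9 on GRCm39, made a count per gene, and used DESeq2 1.30.1, and the study's methods name KisSplice, KisSplice2refgenome and KissDE for the events, with stranded poly(A) libraries. The event table holds the authors' deposited reads of both paths and a deposited PSI, and how paths crossing several events share reads is not given in the sources used here. The table's own comparison columns were not used. The members and gene lists were chosen with earlier results of these data known.

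Reads of the 2 read files of a library were summed and PSI was recomputed from them (Pearson r with the deposited PSI over 9513 values 0.980, recomputed median 0.0376 higher). Events of a type other than splicing (546) were left out. Both paths were fitted in R 4.3.3 with edgeR 4.0.16 (quasi-likelihood F test, with terms for library, for path and for the interaction of path with genotype), with Benjamini-Hochberg adjustment over 17656 events. Single paths used TMM library sizes of the gene table, and genes were kept by filterByExpr. Medians were compared by exact permutation. All adjusted p-values are from edgeR unless named otherwise. The steps were tested on simulated data. Libraries of a genotype differed by more than sampling noise (chi-square per degree of freedom 7.42 to 32.6), so none was counted as a copy.

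Over 8771 genes with a mean of 5 CPM or more, deviations from the genotype means correlated between libraries of the same number (0.63, 0.48 and 0.48), and the labels' replicate numbers were taken to pair the libraries. Libraries of differing number gave 0.20 and 0.25 between replicates 2 and 3, and -0.51 to -0.42 where replicate 1 took part. The pairing of replicates 2 and 3 is thus less distinct than that of replicate 1. Over the PSI of short introns the correlations between libraries of the same number were 0.069, 0.0088 and 0.049. The number entered as a block only in an alternative. Named introns are the 10 largest falls and all rises called, the 5 with most reads, the 3 shortest and 3 longest called, up to 4 called per gene list, genes with 3 or more short introns and genes the study names for these cells. Not all are given, and others were chosen after their values were seen. A fold against no read uses a floor of 3 counts over the genotype, for counting error only. Alternatives changed the coverage minimum, the PSI threshold, the tool (limma 3.58.1, DESeq2 1.42.0), the reads and events counted, the scaling and the libraries.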

Additional observations from a re-analysis of the deposited data

How the results depend on the processing

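No called intron changed direction under any alternative run, and 19 of the 57 called introns stayed called in every fit that held them, the threshold of 0.20 aside. The 48 introns with lower retention became 19 at a PSI threshold of 0.20, 20 with DESeq2, 33 with limma, and 23 without complex, paralog and SNP events. The 9 with higher retention became 3 with limma and 2 with DESeq2. Together the 57 became 25 at the higher threshold, 36 with limma, 22 with DESeq2 and 30 without complex events. Alternatives chosen after seeing the data were the adjusted p alone (78 lower, 19 higher, 97 in all), leaving out introns whose ends differ over 5-fold in reads (none of these 12 was called), and leaving out SNP events (46 lower and 8 higher). Without each library in turn the counts ran from 28 to 45 lower, from 2 to 16 higher and from 36 to 52 in all, and the retained path was higher in 71 to 128 introns. The causes were not tested, beyond the smaller sets that the threshold, the event filter and the left-out libraries make by construction.

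With the replicate block, which pairs same-numbered libraries, 57 introns were lower and 13 higher (70 in all), including all 57 called without it. The retained path was then lower in 260 and higher in 152, the spliced path lower in 257 and higher in 318, and 39 host genes were lower and 22 higher. An exact sign change over the pairs, added after seeing the data, gave the same median differences (-0.0139 and 0.0139) with p = 0.25, the smallest that 3 pairs allow. Depth limits introns with few reads: under 10 reads in any library 88 introns were not tested.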

Other observations

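Some falls were in introns that touch a UTR and were kept in most transcripts. Stx5a, a Golgi syntaxin, had PSI 0.704, 0.752 and 0.750 in Sf3b1 K700E/+ against 0.826, 0.869 and 0.863 in Sf3b1 +/+ libraries for its first intron of 99 nt (edgeR adjusted p = 0.0317), and the genotypes did not overlap. Mrpl24, a protein of the mitochondrial ribosome, had 0.629, 0.593 and 0.585 against 0.743, 0.693 and 0.691 in its first intron of 97 nt (adjusted p = 0.0213). Sharpin, a subunit of the linear ubiquitin ligase complex, had 0.653, 0.691 and 0.642 against 0.931, 0.870 and 0.898 in an 88-nt intron (adjusted p = 0.00100). The Sharpin call was kept without any single library, and those of Stx5a and Mrpl24 were lost without 5 and 3 of the 6 libraries.

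The gene 5430401H09Rik, listed as a lncRNA, had PSI 0.443, 0.385 and 0.547 against 0.782, 0.841 and 0.764 in a 146-nt intron (adjusted p = 0.00589), lost without Sf3b1 +/+ replicate 2 (0.0559). Gpt, alanine aminotransferase, had 0.206, 0.219 and 0.348 against 0.634, 0.464 and 0.606 in a 106-nt intron (adjusted p = 0.0194), a call lost without any of Sf3b1 K700E/+ replicate 1 or 2 or Sf3b1 +/+ replicate 1 or 3. Pradc1 had 0.130, 0.121 and 0.0883 against 0.341, 0.437 and 0.352 in a 128-nt intron (adjusted p = 0.00478) and kept its call in every alternative fit that held it, at the PSI threshold of 0.10.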
